A study of Mus musculus with 27 samples.

Results

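The strain difference of unirradiated lung was read from 6 of the 27 arrays of the series, 3 of CBA/J and 3 of C57BL/6J mice, each given 0 Gy. The sample labels of the former say only CBA, and the substrain CBA/J is that of the growth protocol. The mice were females of 10 to 12 weeks from the Jackson Laboratory, and lung was taken 24 h after the sham exposure. Each array held RNA of the right upper lobe of 1 mouse, with no pooling and an RNA integrity number above 9. The labels class the strains by late lung disease after irradiation, pneumonitis only for CBA/J and pulmonary fibrosis with mild pneumonitis for C57BL/6J. C57L/J sham lung (3 arrays) and CBA/J and C57BL/6J lung after 12.5 or 15 Gy of X-rays to the whole thorax (3 arrays per strain and dose) served only for comparison. Whether the 3 mice of a group came from separate litters or cages is not given, so the p-values measure the spread between these mice. Values are log2 intensities of Affymetrix probe sets, and a difference is CBA/J minus C57BL/6J unless it is called lower.

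Inbred strains are fixed for different alleles at many loci, so that their tissues differ in gene expression without any treatment. Gene families of immunity are known for such variation: the major histocompatibility complex (MHC), which differs in haplotype between CBA/J (H2k) and C57BL/6J (H2b), the interferon-inducible Ifi200 genes, the TRIM genes and the Ly49 receptors of natural killer cells, whose copy number also varies. A probe set reads a transcript through short probes, and a base that differs between strains under a probe can change the signal without a change in the transcript. Genes with several probe sets were therefore read on each of them. In whole lobes, fewer cells of a type and less RNA per cell cannot be told apart.

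The 8 lung tissue markers, among them surfactant proteins Sftpc and Sftpb and the club cell protein Scgb1a1, stood at a mean of 13.08 to 13.22 on the CBA/J arrays and 13.26 to 13.38 on the C57BL/6J arrays, and none of the 8 was called (limma; 1 lower at an unadjusted p under 0.05). CBA/J replicates 1 and 2 carried skeletal muscle transcripts: the mean of 20 muscle genes was 9.04 and 9.93 on them, 6.75 on CBA/J replicate 3 and 6.29 to 6.70 on the C57BL/6J arrays. The same CBA/J arrays were high in 11 squamous epithelium genes (8.97 and 10.85, against 5.45 on replicate 3 and 5.0 to 6.23 in C57BL/6J). CBA/J replicate 3 was instead highest in 10 fat genes (11.03, against 6.05 to 8.64 on the other 5 arrays) and in 9 lymph node and thymus genes (7.98, against 5.24 to 6.37). Of the muscle genes 19 of 20 had higher estimates in CBA/J and 0 were called (limma; 8 at an unadjusted p under 0.05). Outside that list, 4 genes of striated muscle picked after their values were seen were among the genes called higher in CBA/J: Jsrp1 (2.76), Hspb3 (1.68), Myh7 (1.52) and Tmod4 (1.09). On CBA/J replicates 1, 2 and 3, Myh7 read 10.59, 10.27 and 10.42, Hspb3 6.60, 7.16 and 6.52, and Tmod4 7.61, 7.51 and 7.54. For Myh7, Hspb3 and Tmod4, replicate 3 stood close to replicates 1 and 2, unlike the muscle list. A call on 6 arrays largely requires such closeness, so it says nothing of the source of these transcripts, which was not tested. In other mice at 12.5 and 15 Gy the difference was 1.21 and 1.37 for Myh7, 1.17 and -1.09 for Hspb3 and 2.63 and -0.09 for Tmod4.

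**Figure D1:**
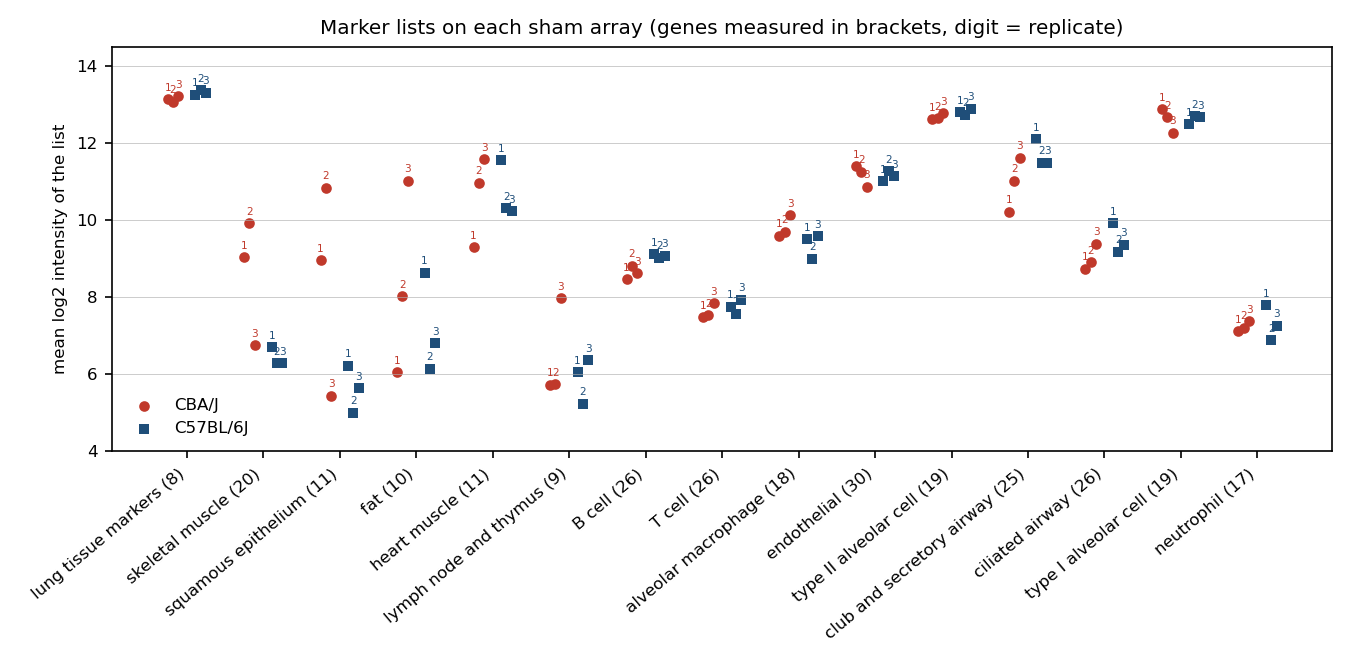
Mean log2 intensity of marker lists (y axis) on each of the 6 sham arrays, red circles for CBA/J and blue squares for C57BL/6J, with the replicate number at each point. The lung list lies between 13.08 and 13.38 on every array, whereas skeletal muscle and squamous epithelium are high on CBA/J replicates 1 and 2, and fat on CBA/J replicate 3.

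Of 18193 genes tested with limma, 199 (1.09%) were called at a Benjamini-Hochberg adjusted p under 0.05. In CBA/J lung 73 of them (0.401%) were higher and 126 (0.693%) lower than in C57BL/6J lung. The differences were large: 182 of the 199 exceeded 2-fold, 78 exceeded 4-fold and 29 exceeded 8-fold, and the smallest was 0.74 log2 units. The median difference over all genes was 0.00. An unadjusted limma p under 0.05 was reached by 2069 of the 18193 genes, in either direction. The counts of the gene lists at this threshold, given below, are to be read against that share. The 2 groups of arrays did not overlap for 3194 of all genes (17.6%), and for all 199 that were called. At a mean log2 intensity of at least 7 in the higher strain there were 171 called genes, 59 higher and 112 lower in CBA/J. The count of calls depended on the number of arrays: without any single array 31 to 129 genes were called, and with CBA/J replicate 3, which lacks the muscle transcripts, as the only CBA/J array 1 gene was (Glycam1, of lymph node venules, which is not among the 199). With the muscle score as a covariate 0 genes were called (limma; 1661 at an unadjusted p under 0.05), and all 199 kept their direction at an unadjusted p under 0.05. Each of the 199 kept its direction in all 6 of these smaller fits with an unadjusted limma p under 0.01, and on CBA/J replicate 3 alone all 199 lay outside the C57BL/6J values in the same direction, which a call on 6 arrays largely requires. Of the 199, 23 were called without each array in turn, among them Mndal, Ifi202b, Ifi213, Trim34a, H2-K1, H2-D1, H2-Ea, Ang, Pink1 and Baiap2l1.

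**Figure D2:**
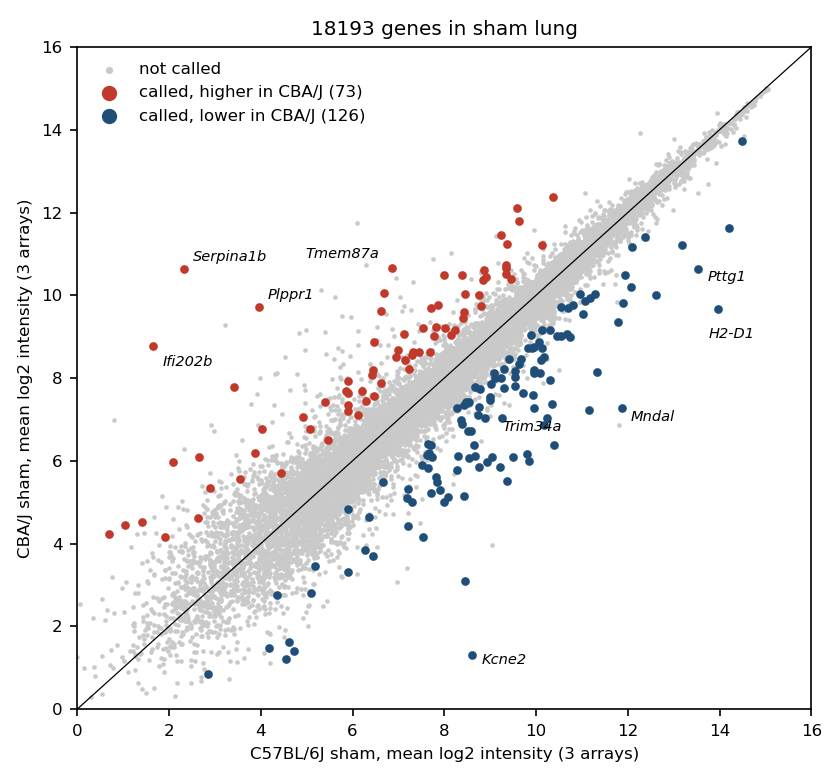
Mean log2 intensity of each of 18193 genes in C57BL/6J sham lung (x axis) and CBA/J sham lung (y axis), 3 arrays each; the line marks equal values. The 73 genes called higher in CBA/J are red and the 126 called lower are blue; Serpina1b, Ifi202b and Plppr1 lie farthest above the line, and Kcne2, Mndal and H2-D1 far below it.

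The Ifi200 genes encode proteins with DNA-binding HIN domains and are clustered on chromosome 1. Of the 6 measured members of the family's list, 1 was higher and 2 were lower in CBA/J lung, and the median difference was -0.52. Mndal read 7.46, 7.05 and 7.30 on the CBA/J arrays and 11.85, 11.97 and 11.79 on the C57BL/6J arrays. It was thus 24.3-fold lower in CBA/J (4.60 log2 units, SE 0.15, limma adjusted p = 0.000916), and its other probe set was 9.13 units lower. The probe set read here is of a kind that can bind related transcripts. Its CBA/J mean was 7.27, against 2.16 on the other, so the size of the difference is not firm. Ifi213 read 5.54, 6.08 and 5.92 in CBA/J against 9.52, 8.81 and 9.33 in C57BL/6J (3.38 units lower, SE 0.25, adjusted p = 0.00823), and its other probe set was called lower too (3.14 units). Ifi202b, a member without the pyrin domain that most of the family carry, went the other way: 8.55, 9.05 and 8.75 in CBA/J against 1.91, 1.80 and 1.25 in C57BL/6J. Those C57BL/6J values lie at the dark end of the array, so the size of this difference (7.13 units, SE 0.23, adjusted p = 0.000916) depends on the floor, and with intensities floored at 32 it was 3.78 units. The only probe set of Ifi202b is also of a kind that can bind related transcripts. Ifi209, a member outside that list, which follows Ifi213 in the RefSeq order of measured genes and was picked after its values were seen, was 4.01 units lower (SE 0.24, adjusted p = 0.00502). Aim2, the DNA sensor of the inflammasome, was not called (estimate 1.33, SE 0.44, adjusted p = 0.332), nor were Ifi203 and Ifi204.

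TRIM proteins are ubiquitin ligases, several of which restrict viruses, and a cluster of them on chromosome 7 is interferon-inducible. On the list of 38 measured interferon-stimulated genes used here, Trim34a alone was called. The list does not hold every gene of this kind: Mndal, Ifi213, Ifi209, Trim5 and Trim30d, which were called too, are not on it. Trim34a read 7.23, 7.11 and 7.35 in CBA/J against 11.08, 11.09 and 11.29 in C57BL/6J (15.2-fold lower, 3.92 units, SE 0.13, limma adjusted p = 0.000916). Its other probe set, however, was called the other way, 1.80 units higher in CBA/J (SE 0.22, adjusted p = 0.0296), so that the direction for the gene as a whole is not settled. Its neighbour Trim5 (3.28 units lower, SE 0.20, adjusted p = 0.00502) and Trim30d (3.87 units lower, SE 0.17, adjusted p = 0.00232) were both picked after their values were seen, and their CBA/J arrays stood at 5.02 to 5.65. The list as a whole had 13 higher and 25 lower estimates and a median of -0.12, and 0 members higher and 6 lower had an unadjusted p under 0.05.

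Because interferon-inducible genes lie in both clusters, the RefSeq promoter windows of 7 genes of the clusters (Mndal, Ifi213, Ifi209, Ifi202b, Trim34a, Trim5 and Trim30d; from 250 bases before to 50 after the start) were searched for the core of the interferon-stimulated response element, written as GAAA, any 2 bases and GAAA again, on both strands (TTTC, any 2 bases and TTTC on the other). The windows are of the C57BL/6J reference, build GRCm38.p6, and the CBA/J sequence was not analysed here. The motif was in a window of 5 of the 7 genes, against 3.99% of the 27025 genes with a window (3.44% of 32851 windows). The 7 genes were picked from those called here, out of clusters known to hold interferon-inducible genes. Their share is therefore no test of a link between the motif and the strain difference. No match was found in the windows of Ifi209 and Ifi202b. The windows are shown for Mndal, Ifi213 and Trim5, which were lower in CBA/J, and for Trim34a, whose probe sets disagreed, 5′ to 3′ on the gene's strand, with the match in capitals. They lie at chr1:173880138-173880437 (minus strand) for Mndal, chr1:173599223-173599522 (minus) for Ifi213, chr7:104244207-104244506 (plus) for Trim34a and chr7:104288057-104288356 (minus) for Trim5.
Mndal: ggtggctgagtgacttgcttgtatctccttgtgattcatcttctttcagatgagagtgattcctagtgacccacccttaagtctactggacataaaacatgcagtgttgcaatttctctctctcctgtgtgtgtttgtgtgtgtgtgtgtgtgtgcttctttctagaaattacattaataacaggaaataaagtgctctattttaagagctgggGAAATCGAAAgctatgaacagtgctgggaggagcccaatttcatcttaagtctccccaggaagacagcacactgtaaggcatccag
Ifi213: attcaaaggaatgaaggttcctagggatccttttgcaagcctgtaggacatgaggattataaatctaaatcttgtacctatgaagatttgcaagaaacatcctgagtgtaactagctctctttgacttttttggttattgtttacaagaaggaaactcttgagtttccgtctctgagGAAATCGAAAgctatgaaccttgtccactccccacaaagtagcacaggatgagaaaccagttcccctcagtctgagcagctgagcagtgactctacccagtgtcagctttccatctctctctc
Trim34a: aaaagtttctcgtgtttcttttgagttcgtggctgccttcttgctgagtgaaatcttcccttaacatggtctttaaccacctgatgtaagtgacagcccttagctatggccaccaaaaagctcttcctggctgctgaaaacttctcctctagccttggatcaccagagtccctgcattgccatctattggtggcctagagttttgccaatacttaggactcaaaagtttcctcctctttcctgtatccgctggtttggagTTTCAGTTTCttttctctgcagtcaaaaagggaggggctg
Trim5: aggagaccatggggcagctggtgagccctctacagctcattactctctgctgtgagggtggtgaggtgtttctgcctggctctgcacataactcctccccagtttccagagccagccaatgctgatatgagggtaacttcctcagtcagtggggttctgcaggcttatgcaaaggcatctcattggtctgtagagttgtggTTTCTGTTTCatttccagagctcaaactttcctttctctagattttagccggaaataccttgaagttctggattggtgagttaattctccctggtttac
In the windows shown, the match begins 36 bases before the start of Mndal, 73 before that of Ifi213 and 49 before that of Trim5, and within the transcript of Trim34a, at base 11. Not shown are a further window of Mndal, with a match 54 bases before another start, and that of Trim30d, with a match 41 bases before its start. A match is a stretch of letters and says nothing of the binding of a factor in either strain.

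MHC class I molecules present peptides to CD8 T cells. Of 21 class I genes and partners measured, 1 was higher and 3 were lower in CBA/J, with a median of -0.10. At an unadjusted limma p under 0.05, 2 were higher and 7 lower. H2-K1 read 11.77, 11.53 and 11.55 in CBA/J and 14.11, 14.43 and 14.10 in C57BL/6J (6.03-fold lower, 2.59 units, SE 0.15, limma adjusted p = 0.00502). H2-D1 read 9.96, 9.67 and 9.35 against 13.89, 14.16 and 13.85 (19.8-fold lower, 4.30 units, SE 0.20, adjusted p = 0.00258). The probe sets of these genes differed among themselves. Of the 9 for H2-D1, 3 were called lower in CBA/J by 4.30 to 4.75 units and 1 was called higher by 4.61 units (SE 0.35, adjusted p = 0.00835), and the mean of the 9 differed by -0.26 (adjusted p = 0.795). Of the 4 for H2-K1, 3 were called lower, by 2.02 to 4.59 units, and 1 had an estimate of 0.66. Class I genes are near-identical copies that differ in sequence between haplotypes, and the intensities cannot be assigned to a gene with certainty. H2-M3, which presents formylated peptides, was 1.15 units lower (SE 0.17, adjusted p = 0.0485), a call lost with quantile normalization (adjusted p = 0.0504) and median-centring (0.0768). The nonclassical H2-T24 was 1.24 units higher (SE 0.13, adjusted p = 0.0205), with 0.61 at 12.5 Gy and 0.25 at 15 Gy in other mice.

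Among 12 class II genes, whose products present peptides to CD4 T cells, H2-Ea was called and no other. H2-Ea encodes the E alpha chain, which mice of the H2b haplotype are known to lack. It read 10.14, 10.02 and 10.02 in CBA/J and 6.98, 6.71 and 6.36 in C57BL/6J (10.4-fold higher, 3.38 units, SE 0.19, limma adjusted p = 0.00445). A further probe set was called in the same direction (4.74 units), and C57L/J read 5.99 to 6.40, near C57BL/6J. The partner chain H2-Eb1 had an estimate of -0.56 (SE 0.17, adjusted p = 0.286) and H2-Ab1 of -0.36, and the list's median was -0.12.

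Of 11 measured genes known as textbook strain variants, H2-Ea included, 4 were higher and 1 was lower in CBA/J (median 0.39). Glo1, the glyoxalase that clears methylglyoxal, read 11.27, 11.26 and 11.13 in CBA/J and 10.16, 10.10 and 10.16 in C57BL/6J. It was 2.12-fold higher (1.08 units, SE 0.11, adjusted p = 0.0188), and 3 of its 4 probe sets were called higher by 1.08 to 1.27 units. Alad, an enzyme of heme synthesis, read 11.31, 11.35 and 11.07 against 9.07, 9.58 and 9.45 (3.67-fold higher, 1.88 units, SE 0.18, adjusted p = 0.0157), on each of its 2 probe sets. C57L/J stood with CBA/J for Alad (11.70 to 11.81) and with C57BL/6J for Glo1 (10.19 to 10.28). Nnt, the mitochondrial transhydrogenase for which C57BL/6J is known to carry a deletion, read 11.07, 11.31 and 10.66 in CBA/J and 9.70, 9.47 and 10.23 in C57BL/6J. Its groups did not overlap, but the difference of 1.21 units (SE 0.26) was not called (adjusted p = 0.145).

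Natural killer cells carry Ly49 receptors for MHC class I, encoded by the Klra genes. Of 24 genes of killer cells, 0 were higher and 2 were lower in CBA/J, with a median of -0.19. Klra8, which encodes Ly49H, the activating receptor for mouse cytomegalovirus known from C57BL/6J, read 4.24, 4.56 and 3.65 in CBA/J and 7.34, 7.64 and 7.66 in C57BL/6J (3.39 units lower, SE 0.26, limma adjusted p = 0.00994). With intensities floored at 32 the difference was 2.54 units. Klra8 has 1 probe set, of a kind that can bind related transcripts, so the signal may not be of Ly49H alone. C57L/J read 1.46 to 3.30 for Klra8. The neighbouring Klra7 was 2.09 units lower (SE 0.24, adjusted p = 0.0253) on 1 probe set and 0.00 on the other, both of a kind that can bind related transcripts. Ncr1, the NKp46 receptor of all killer cells, had an estimate of 1.21 (adjusted p = 0.158), and Gzmb of -0.67 (adjusted p = 0.227).

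**Figure D3:**
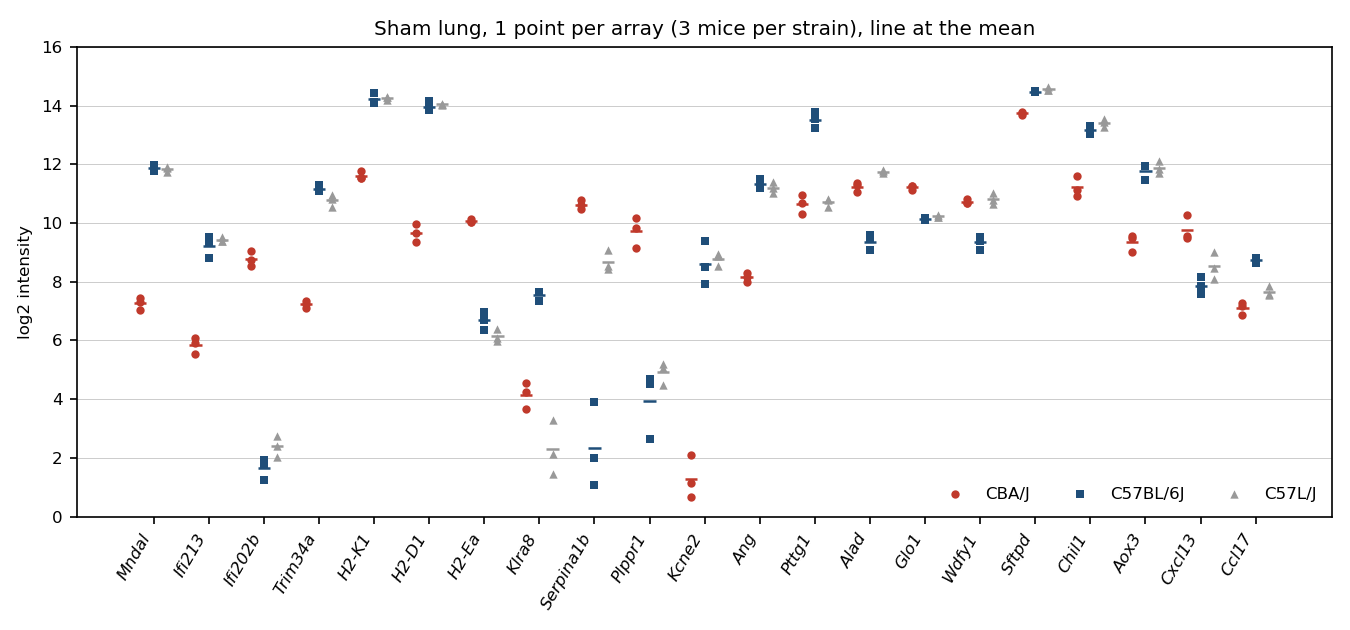
Log2 intensity (y axis) of 21 called genes on each sham array of CBA/J (red circles), C57BL/6J (blue squares) and C57L/J (grey triangles), 3 mice each, with a line at the mean. The red and blue points are apart for every gene shown, whereas C57L/J lies with C57BL/6J for Mndal and H2-Ea and with CBA/J for Alad, Wdfy1 and Pttg1.

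In the alveolar epithelium, type II cells make surfactant and its collectins. Of 19 type II markers 0 were higher and 2 were lower in CBA/J, with a median of -0.04. Sftpd, the collectin surfactant protein D, read 13.78, 13.69 and 13.75 in CBA/J and 14.47, 14.49 and 14.49 in C57BL/6J. The difference was small but tight (1.67-fold, 0.74 units lower, SE 0.11, limma adjusted p = 0.0476), and the call was lost with quantile normalization (adjusted p = 0.0841) and median-centring (0.0774). Sftpa1, the other collectin, was lower by an estimated 0.67 units (SE 0.12, adjusted p = 0.0905). Chil1, a secreted chitinase-like protein, read 10.92, 11.12 and 11.62 against 13.21, 13.30 and 13.04 (3.90-fold lower, 1.96 units, SE 0.21, adjusted p = 0.0208). Sftpc and Sftpb differed by estimates of -0.04 and -0.26 and were not called. None of 19 type I and 30 endothelial markers was called by limma (1 endothelial gene was higher at an unadjusted p under 0.05), and each list had a median of 0.01.

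Airway genes gave lower estimates in CBA/J over most of the list, with few calls. Of 25 club and secretory genes 22 had a lower estimate (median -0.42) and 1 was called. At an unadjusted limma p under 0.05, 0 of them were higher and 3 lower. Of 26 ciliated cell genes 24 had a lower estimate (median -0.57) and 0 were called (3 lower at an unadjusted limma p under 0.05). The mean log2 level of the club and secretory list was 10.22, 11.03 and 11.63 on CBA/J replicates 1, 2 and 3. On the C57BL/6J arrays it was 12.10, 11.50 and 11.49, so that the strains overlapped. The mean log2 level of the ciliated list overlapped too, from 8.74 to 9.39 in CBA/J and from 9.19 to 9.93 in C57BL/6J. Both lists were lowest on the 2 CBA/J arrays with muscle transcripts. The called gene was Aox3, an aldehyde oxidase, at 9.00, 9.48 and 9.56 in CBA/J and 11.96, 11.46 and 11.93 in C57BL/6J (5.41-fold lower, 2.44 units, SE 0.22, adjusted p = 0.0139). Cftr, the chloride channel of airway epithelium, read 8.72, 8.60 and 8.52 against 7.63, 7.66 and 7.74 (1.92-fold higher, 0.94 units, SE 0.12, adjusted p = 0.0303). That call was lost in the fit over 18 arrays (adjusted p = 0.0633) and with median-centring (0.0595), and its other probe set was not called. Kcne2, a subunit of potassium channels, had the largest difference of any called gene lower in CBA/J on the log2 scale used: 2.10, 1.13 and 0.65 against 8.51, 7.93 and 9.40 (7.32 units, SE 0.51, adjusted p = 0.00771). It has 1 probe set, its CBA/J values lie at the dark end, and with intensities floored at 32 the difference was 3.61 units, smaller than that of Mndal (4.60) or H2-D1 (4.30), so that the rank rests on the floor.

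Genes of leukocytes held a few single calls. B cell genes had lower estimates in CBA/J for 23 of 26 members (median -0.48), with 0 called and 13 lower at an unadjusted limma p under 0.05. Over all 18193 genes, 2069 reached that threshold in either direction. The mean log2 level of the B cell list was 8.47 to 8.82 in CBA/J and 9.03 to 9.12 in C57BL/6J, without overlap. Cxcl13, the chemokine that draws B cells into follicles, was higher in CBA/J, at 9.55, 9.48 and 10.26 against 7.59, 7.87 and 8.15 (3.72-fold, 1.90 units, SE 0.27, limma adjusted p = 0.0462) and on each of its 2 probe sets. Cxcl13 is also the called member of the lymph node and thymus list, which, like Cxcl13, was highest on CBA/J replicate 3. Its call did not hold in the fit over 18 arrays (adjusted p = 0.306), and the difference was 1.87 at 12.5 Gy and -1.30 at 15 Gy, neither of them called. Ccl17, a chemokine of dendritic cells and alternatively activated macrophages, read 6.86, 7.17 and 7.29 against 8.64, 8.81 and 8.75 (3.09-fold lower, 1.63 units, SE 0.16, adjusted p = 0.0157).

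Alveolar macrophage genes had 15 of 18 estimates higher in CBA/J (median 0.42), with 5 higher and 1 lower at an unadjusted limma p under 0.05. The called member was Krt79, a keratin, at 10.58, 10.63 and 10.62 in CBA/J against 8.76, 8.62 and 9.24 in C57BL/6J (3.33-fold higher, 1.74 units, SE 0.19, adjusted p = 0.0209). The mean log2 level of the list was 9.60, 9.70 and 10.13 in CBA/J and 9.51, 9.00 and 9.59 in C57BL/6J, so that the strains hardly separated. Of 30 pattern recognition genes Tlr1, which pairs with Tlr2 to sense bacterial lipopeptides, was called 4.65-fold lower (5.57, 5.69 and 5.53 against 7.83, 7.57 and 8.05, adjusted p = 0.00798). Tlr6, the other partner of Tlr2, had an estimate of 1.19 in the opposite direction (adjusted p = 0.0654). Of 19 complement genes Cd55, which protects cells from complement, was called 1.19 units lower (SE 0.12, adjusted p = 0.0188), a call that the mean of its 3 probe sets did not give (adjusted p = 0.0967). T cell (26 genes), neutrophil (17), monocyte (19) and cell division (24) lists held 0 calls by limma, with medians from -0.10 to 0.06; 4 T cell genes and 4 monocyte genes were lower, 2 neutrophil genes higher and 2 lower, and 1 cell division gene higher at an unadjusted p under 0.05.

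Genes for which another probe set was called in the same direction numbered 24, 9 higher and 15 lower in CBA/J. The largest difference of any gene higher in CBA/J was that of Serpina1b, an alpha-1-antitrypsin that inhibits neutrophil elastase. It read 10.78, 10.63 and 10.48 in CBA/J and 1.06, 3.90 and 2.01 in C57BL/6J (8.31 units, SE 0.71, limma adjusted p = 0.0113). With intensities floored at 32 the difference was 5.63 units, and both of its probe sets belong to a kind that can bind related transcripts of the Serpina1 family. C57L/J stood between the strains, at 8.42 to 9.07. Plppr1, a membrane protein of the lipid phosphatase family, read 9.83, 10.17 and 9.15 against 2.65, 4.69 and 4.51 (5.77 units higher, SE 0.61, adjusted p = 0.0205), and 3 of its 4 probe sets were called.

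Ang, the secreted ribonuclease angiogenin, read 8.17, 8.0 and 8.29 in CBA/J and 11.26, 11.19 and 11.50 in C57BL/6J (8.96-fold lower, 3.16 units, SE 0.15, adjusted p = 0.00258). All 3 probe sets of Ang were called lower, by 1.66 to 7.47 units. The one read here and the one with 7.47 units are of a kind that can bind related transcripts, so the size is not firm. Pttg1, the securin that holds back separase until anaphase, read 10.68, 10.30 and 10.94 against 13.54, 13.80 and 13.23 (7.40-fold lower, 2.89 units, SE 0.23, adjusted p = 0.0108). C57L/J was as low as CBA/J for Pttg1 (10.54 to 10.82), and the list of cell division genes held no call. None of 41 genes of the DNA damage response list was called by limma (2 higher and 0 lower at an unadjusted p under 0.05).

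Pink1, the kinase that marks damaged mitochondria, was 1.87 units lower (SE 0.11, adjusted p = 0.00502), its CBA/J arrays at 10.18 to 10.23 and its C57BL/6J arrays at 11.99 to 12.17. Sphk1, which makes sphingosine 1-phosphate, was 1.74 units lower (SE 0.15, adjusted p = 0.0113), and Rab6b, a GTPase of the Golgi, 2.34 units lower (SE 0.20, adjusted p = 0.0113). Baiap2l1, an adaptor between membrane and actin, was 2.53 units higher on 1 probe set and 2.58 on the other (adjusted p = 0.00502 for the gene). Wdfy1, an endosomal protein, was 1.39 units higher (SE 0.16, adjusted p = 0.0242) and called on 3 of 5 probe sets. Rpgrip1, a protein of the photoreceptor cilium, was lower by 2.97 units and 2610507I01Rik by 2.56 units, each on 2 probe sets. Among genes with 1 probe set, Tnfrsf14, the HVEM receptor, was 4.36 units higher (2.79 floored at 32), Tmem87a, a membrane protein, 3.79 and Fez1, an adaptor of axonal transport, 3.00, whereas Ankrd63 was 3.85 and Nxpe4 3.63 units lower.

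The probe sets of a gene did not always move together. Of the 199 called genes, 102 had 1 probe set and 97 had several. Among those 97, 24 had another probe set called the same way, 19 had another probe set with a mean of at least 7 in both strains that was called the other way or differed by less than 0.5 log2 units, and 2 (H2-D1 and Glo1) belonged to both counts. Those 19 were lower in CBA/J in 14 cases and higher in 5. In 4 genes (H2-D1, Trim34a, Pdxdc1 and Gadd45gip1, the last picked after its values were seen) a further probe set was called in the opposite direction. Pdxdc1, a decarboxylase-like gene, was lower by 3.31 units on the brightest probe set and by 1.44 on another, but higher by 4.19 units on a further probe set (SE 0.20, adjusted p = 0.00335). Cuedc1 was 1.59 units higher on 1 probe set while 2 others differed by 0.01 and 0.22, and Srd5a3, a steroid reductase family enzyme of glycosylation, was 1.31 units higher on 1 while the other 4 lay between -0.42 and -0.23. Kctd14 was 1.96 units lower on 1 probe set with the other 3 between -0.75 and 0.17, Smim10l1 was 2.08 units lower with the brighter of its others at -0.27, and Trim16 2.33 units lower with its other at -0.38. Mast4 was 0.93 units higher on 1 of 8 probe sets. Whether a sequence difference under the probes or a transcript form caused these splits was not tested. Probe sets of a kind that can bind related transcripts also stood for Pttg1, Cftr, Kctd14 and Srd5a3.

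**Figure D4:**
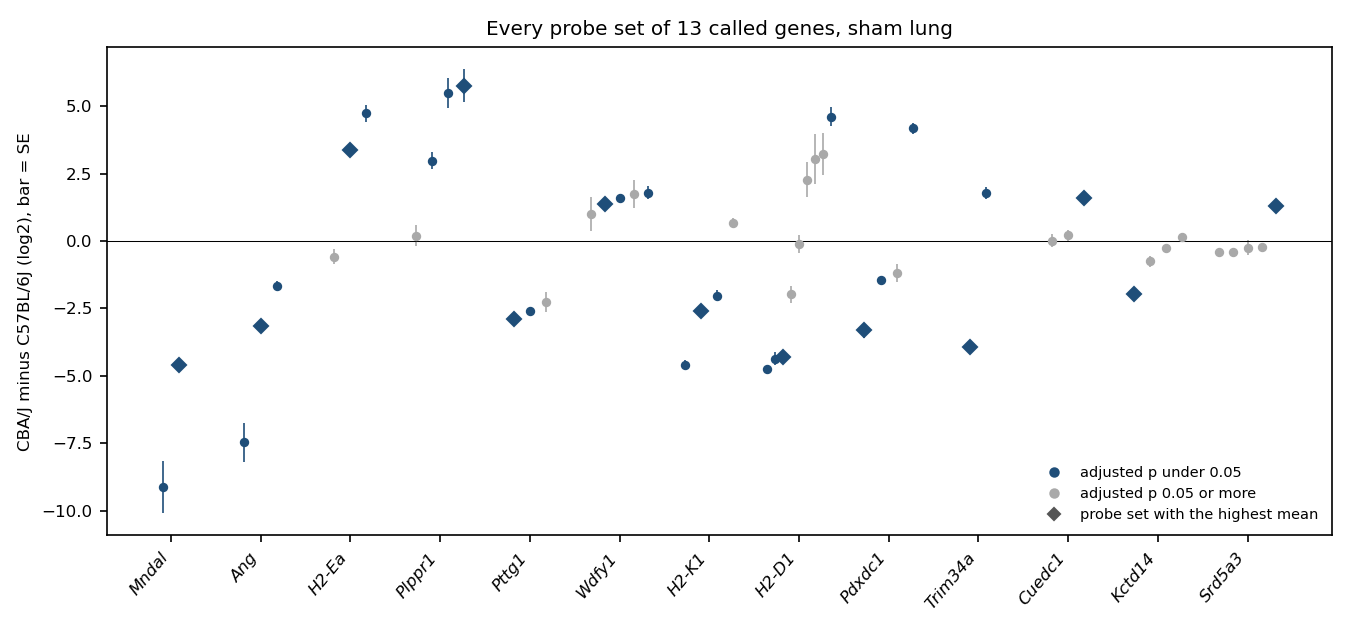
Difference between CBA/J and C57BL/6J sham lung (y axis, log2, bars are SE) for every probe set of 13 called genes; blue points have a limma adjusted p under 0.05 and diamonds mark the probe set with the highest mean. The probe sets of Mndal, Ang and Pttg1 lie on 1 side of 0, whereas H2-D1, Pdxdc1 and Trim34a have called probe sets on both sides.

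The same strains were compared in other mice at 12.5 and 15 Gy, which share no array with the sham comparison. A base that differs between strains under a probe would be present in these mice too. A difference that recurs in them is therefore not told apart from such a base. At 12.5 Gy 103 genes (0.566%) were called and at 15 Gy 337 (1.85%). Of the 171 called genes with a mean of at least 7 in the higher strain, 170 had the same direction at 12.5 Gy and 167 at 15 Gy, and 166 at both doses. An unadjusted limma p under 0.01 in that direction was reached by 139 of them at 12.5 Gy and by 141 at 15 Gy, against 4.3% and 7.67% of all genes in either direction, and 0 reached it in the opposite direction. The adjusted p was under 0.05 for 60 at 12.5 Gy and 102 at 15 Gy, and for 50 at both. Of the 28 dimmer genes, 21 and 20 had the same direction, and 2 and 3 reached the unadjusted threshold. The difference was -2.84 at 12.5 Gy and -2.71 at 15 Gy for H2-K1 (-2.59 in sham lung), -3.45 and -3.41 for Pttg1 (-2.89), 1.83 and 1.84 for Alad (1.88) and 1.37 and 1.32 for Glo1 (1.08). Mndal was at -4.75 and -5.56, farther from 0 at 15 Gy than in sham lung, and others were nearer to 0: H2-Ea at 2.39 and 2.15, Sphk1 at -1.59 and -0.90, and Ccl17 at -1.01 and -0.84. The interaction of strain with 15 Gy, tested over 18 arrays, had adjusted limma p of 0.401 for Mndal, 0.451 for H2-Ea, 0.386 for Sphk1 and 0.593 for Ccl17.

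The 5 of the 171 that changed direction at a dose were Cxcl13, Kcne3, Tll1, Cyp21a1 and Tmod4, of which Cxcl13 alone was named by rule. Tmod4 is a tropomodulin of skeletal muscle, and the muscle list exceeded the median array by over 2 log2 units on 2 arrays each of CBA/J and C57BL/6J at 12.5 Gy and on 2 of C57BL/6J and none of CBA/J at 15 Gy. The change of the strain difference with dose was tested as an interaction over 18 arrays. It was called for 0 genes at 12.5 Gy (lowest adjusted p 0.574, 950 genes at an unadjusted p under 0.05) and for 0 at 15 Gy (0.151 and 1281 genes).

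**Figure D5:**
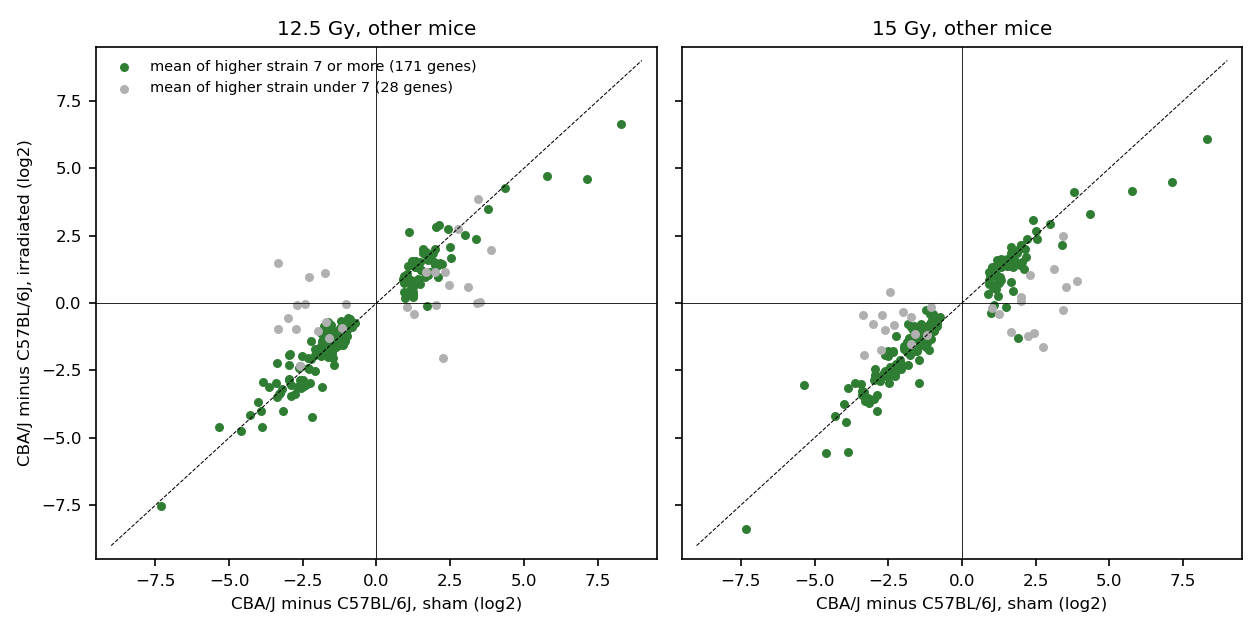
Difference between CBA/J and C57BL/6J (log2) in sham lung (x axis) and in irradiated lung of other mice (y axis; 12.5 Gy left, 15 Gy right) for the 199 genes called in sham lung; the dashed line marks equal differences. The 171 brighter genes (green) lie near the line, with 170 and 167 on the same side of 0, and the 28 dimmer genes (grey) are spread around 0.

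C57L/J sham lung, which is described without a test, lay nearer to C57BL/6J than to CBA/J for 131 of the 171 genes and nearer to CBA/J for 40. It was on the C57BL/6J side for Mndal, Ifi213, H2-K1, H2-D1, H2-Ea, Kcne2, Ang and Chil1, and on the CBA/J side for Pttg1, Alad, Wdfy1, Klra8 and H2-T24. A list was made of only part of the genes whose change after irradiation the paper reports. None of the list's 13 measured genes was called between sham strains by limma (1 higher and 2 lower at an unadjusted p under 0.05). Retnla, Cyp26b1, Auts2, Gria1 and Pon1 were among those measured. The genes of this kind outside the list were not read as a set. Retnla encodes a resistin-like protein often used as a marker of alternatively activated macrophages. The study saw this protein with club cells, and not with such macrophages in late lung. Retnla read 10.77, 10.86 and 13.93 in CBA/J and 12.49, 13.04 and 12.40 in C57BL/6J, and its spread among the CBA/J arrays exceeded the difference (estimate -0.79, SE 0.89, limma adjusted p = 0.816). The highest value was on CBA/J replicate 3, the array highest in fat genes. Of 48 matrix and fibrosis genes 0 were called by limma, and 8 higher and 2 lower had an unadjusted p under 0.05. The stromelysin Mmp3 was closest (estimate -1.0, adjusted p = 0.0532).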

How the data were processed

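The authors deposited linear intensity values of 45101 probe sets per array, made with Affymetrix Expression Console 1.1 per the submitters' processing notes; how probes were summarised into probe sets is not stated there. The methods describe quartile normalization, 1 batch of hybridisation and RNA integrity numbers above 9. The 2% trimmed mean was 500 on every array and no further scaling was applied. Between 15.1% and 16.5% of values on 5 of the 6 sham arrays, and 17.4% on CBA/J replicate 1, lay below an intensity of 32; the number of arrays limits the precision. Deposited intensities were floored at 1, then put on the log2 scale.

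A single symbol was paired with 34945 probe sets, 34884 of them matched to RefSeq of GRCm38.p6; 932 with several symbols and 9211 with none were left out. Of 18193 genes 9183 had 1 probe set and 9010 several, of which the one with the highest mean over 27 arrays stood for the gene. Groups were compared by limma 3.58.1 (lmFit, eBayes; R 4.3.3) on the arrays of each comparison alone, the interaction over 18 arrays, with Benjamini-Hochberg adjustment over all genes. Standard errors are those of limma. In simulated data with the spread of the sham arrays (18193 genes), 5% of changes of 1 log2 unit and 56% of changes of 2 units were called.

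The members and the 43 gene lists were chosen with earlier results of these data known. The list of genes followed by the study holds only part of those that the paper reports. Named were, among called genes with groups that did not overlap and a mean of at least 7 in the higher strain: the 12 largest differences in each direction with another probe set called the same way, the 4 largest with a contradicting probe set and the 4 largest with 1 probe set; up to 4 called members of each list; every gene of the lists of textbook strain variants, lung markers and genes followed by the study; and runs of at least 3 neighbouring called genes, of which there were 0. As alternatives the methods' random variance t test was run, with other thresholds, fits over 27 and 18 arrays, trend and robust priors, array weights, a floor of 32, a low filter, quantile and median scaling, the replicate block, other probe set rules, each array left out, and the muscle arrays or score; reading the calls on CBA/J replicate 3 alone was added after seeing the data. No pair of arrays was identical (highest r 0.959). Some genes are not reported here. Figures were drawn with matplotlib.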

Additional observations from a re-analysis of the deposited data

How the results depend on the processing

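The 199 genes called in sham lung became 557 in a limma fit over 27 arrays, 521 over 18 arrays, 440 with an intensity trend and robust prior, 461 of 12347 genes after a filter on low values, 809 at an unadjusted p under 0.01 and 352 of 34945 probe sets. Of the 199, 171, 170, 179 and 171 were among the calls of the first 4 of these. Without each array in turn the count ran from 31 to 129. It was 1 without the CBA/J arrays that carry muscle, 0 with the muscle score as a covariate (1661 at an unadjusted p under 0.05, 549 under 0.01) and 0 with the replicate block (1579 and 485). These fits have fewer samples or degrees of freedom, and a lone CBA/J array was assumed to vary like the C57BL/6J arrays. The random variance test gave 198 calls, a limit of 2-fold 182, array weights 277, the floor of 32 274, quantile normalization 188, median-centring 183, the most variable probe set 221 and the mean of probe sets 167. With the most variable probe set Pdxdc1 turned to 4.19 and Mast4 to -0.50; no other named gene that was called changed direction. Of the 199 calls 135, 131 and 172 were shared with the most variable probe set, the mean of probe sets and the floor of 32, and 15, 4 and 4 of the 199 took the other sign there.

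Arrays with the same replicate number correlated at -0.112, -0.073 and -0.073, so the numbers were not taken as pairs, and the replicate block also left 0 calls at 12.5 Gy (1835 at an unadjusted p under 0.05) and 0 at 15 Gy (2578). Without the arrays with muscle, 15 Gy gave 0 calls (2396 at an unadjusted p under 0.05), and 12.5 Gy could not be fitted with 1 array per strain. The interaction counted 184 genes at 12.5 Gy and 307 at 15 Gy at an unadjusted p under 0.01, and with the muscle covariate 0 and 1 (Slfn4) at an adjusted p under 0.05. Probe sets gave 824 calls of 21440 after the low filter. Differences that reach below an intensity of 32 have no firm size.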

Other observations

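Neighbouring genes were at times called together. In the RefSeq order of the 18145 measured genes with a position, 7 pairs of adjacent genes were both called, 14 of the 199 genes, and each pair moved in 1 direction on the probe set that stood for each gene. Higher in CBA/J were Hdhd3 (1.30) with Alad (1.88), and Glo1 (1.08) with 1700097N02Rik (1.66). Lower were Ifi213 with Ifi209, Trim34a (on its brighter probe set only) with Trim5, Klra8 with Klra7, Pld4 (-1.53) with Ahnak2 (-2.08) and Rbm28 (-0.83) with Prrt4 (-1.03). These pairs were picked after their values were seen. How many pairs 199 calls would give without regard to position was not computed, so the 7 are a count only. Klra8 and Klra7 were read on probe sets of a kind that can bind related transcripts.

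Zinc finger genes with a Zfp number, a group picked after the calls were seen, were called in 11 of 336 cases (3.27%, against 1.09% of all genes), 5 higher and 6 lower in CBA/J.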
